A study of Mus musculus with 27 samples.

Results

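The genes described are 10 that take part in the uptake of apoptotic cells and of modified lipoproteins or microbes by phagocytes: *Gas6*, *Mfge8*, *Mertk*, *Axl*, *Timd4*, *Stab1*, *Cd68*, *Marco*, *Msr1* and *Cd36*. They are 10 of 30869 gene symbols listed for the array, and every probe listed under one of these symbols was taken, which gave 14 of 45281 probes. *Mertk*, *Axl*, *Mfge8* and *Stab1* had 2 probes each and the other 6 genes had 1. Transcript levels came from Illumina MouseWG-6 BeadChips, where fluorescence of 1 dye gives the signal of a probe. A probe was counted as detected where its detection p-value, set against control probes that match no transcript, was under 0.05. Levels are log2 normalized intensities, and since probes differ in brightness, a level is compared between cells and not between genes.

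Cells were sorted from the colon lamina propria of mice that carried a whole-body deletion of *Mbd2* (*Mbd2*-/-, labelled Mbd2KO) or were WT littermates housed with them. All of these mice had taken 2% DSS (dextran sodium sulfate, a chemical that damages the gut lining) in their drinking water for 6 days, so no untreated colon sample entered any comparison. Monocytes (CD11b+Ly6C+) were held on 5 WT and 5 *Mbd2*-/- arrays, with 5 and 5 of macrophages (CD11b+Ly6C-MHC-II+F4/80+), and 2 and 3 of cDC1s (CD11b-CD11c+CD103+, labelled CD11b-negative DC). Each array held RNA of 1 to 5 mice by the deposited record and of 1 to 10 by the study's methods, aged 8 to 22 weeks. None of the 10 genes encodes a protein used for the sorting gates. Arrays are named by the number in their label.

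A phagocyte recognises a dying cell by the phosphatidylserine on its surface. Some receptors bind this lipid directly, as Timd4 (TIM-4), Stab1 (stabilin-1) and CD36 do, and others bind it through a soluble bridging molecule: Gas6 links it to the receptor tyrosine kinases Mertk and Axl, and Mfge8 links it to integrins. Scavenger receptors such as Msr1 (SR-A), Marco and CD36 bind modified lipoproteins and microbial surfaces, and CD68 is a lysosomal glycoprotein of phagocytes that is widely used as a macrophage marker. Mbd2 binds methylated CpG dinucleotides and recruits repressive chromatin complexes.

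Over the 25 colon arrays, between 16024 and 18608 probes were detected and the mean raw intensity ran from 172 to 353. The 3 sorts carried the markers of their labels, and epithelial transcripts as well. All 9 epithelial markers were detected on every colon array. Their linear intensity summed to 7676 to 17707 in monocytes, 6502 to 22244 in macrophages and 5717 to 21313 in cDC1s, and its source was not tested. Summed over 8 cDC1 markers, the linear intensity was 13090 to 14856 in cDC1s and 1088 to 2244 in the other sorts, with *Clec9a* and *Xcr1* detected on all 5 cDC1 arrays. Over 9 macrophage markers it was 42683 to 50382 in macrophages, 17341 to 22133 in monocytes and 1502 to 4355 in cDC1s. The 6 monocyte markers summed to 14416 to 21709 in monocytes and 4932 to 9833 elsewhere, although *Ccr2*, a defining monocyte receptor, was detected on only 1 of 10 monocyte arrays. The *Mbd2* probe was detected on 0 of 27 arrays and so checked no genotype label.

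Since Mbd2 reads methylated CpGs, the bases upstream of the genes whose WT and *Mbd2*-/- arrays separated in a cell type and passed the test are shown here for 3 of them, *Mertk*, *Marco* and *Timd4*. Promoters of 9 of the 10 genes were held in the RefSeq table (build GRCm38.p6). Each line gives 250 bases, 5′ to 3′ on the strand of the gene, with CpG dinucleotides in capitals. For *Mertk* and *Marco* they end just before the annotated gene, while those of *Timd4* run past the annotated gene start at 46810786. *Mertk* lies on the plus strand at chr2:128698665-128698914, *Marco* on the minus strand at chr1:120505025-120505274 and *Timd4* on the plus strand at chr11:46810549-46810798.
Mertk: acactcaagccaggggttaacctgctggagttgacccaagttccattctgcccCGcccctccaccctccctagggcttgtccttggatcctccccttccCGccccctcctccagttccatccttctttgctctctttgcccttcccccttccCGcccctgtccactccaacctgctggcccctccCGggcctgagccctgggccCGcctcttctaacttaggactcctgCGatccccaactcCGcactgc
Marco: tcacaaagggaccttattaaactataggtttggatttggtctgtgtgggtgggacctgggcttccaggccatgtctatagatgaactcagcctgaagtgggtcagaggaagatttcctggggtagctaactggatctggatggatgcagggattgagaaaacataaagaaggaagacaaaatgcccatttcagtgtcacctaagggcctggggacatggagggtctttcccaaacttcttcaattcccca
Timd4: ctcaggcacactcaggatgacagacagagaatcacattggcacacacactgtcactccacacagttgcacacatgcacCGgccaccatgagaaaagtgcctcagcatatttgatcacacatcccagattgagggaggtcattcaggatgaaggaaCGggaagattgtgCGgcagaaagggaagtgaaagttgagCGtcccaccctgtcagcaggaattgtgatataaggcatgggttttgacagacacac
These stretches held 7, 0 and 4 CpGs, against a median of 6 over 32851 RefSeq promoters, of which 7.87% held none. Those of the other members held 10 (*Gas6*), 12 (*Mfge8*), 5 (*Axl*), 5 (*Stab1*), 3 (*Cd36*) and 4 (*Cd68*). The stretches of *Axl* and *Stab1* also overlap the annotated gene, and that of *Cd36* lies within it. Methylation was not analysed here.

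**Figure D1:**
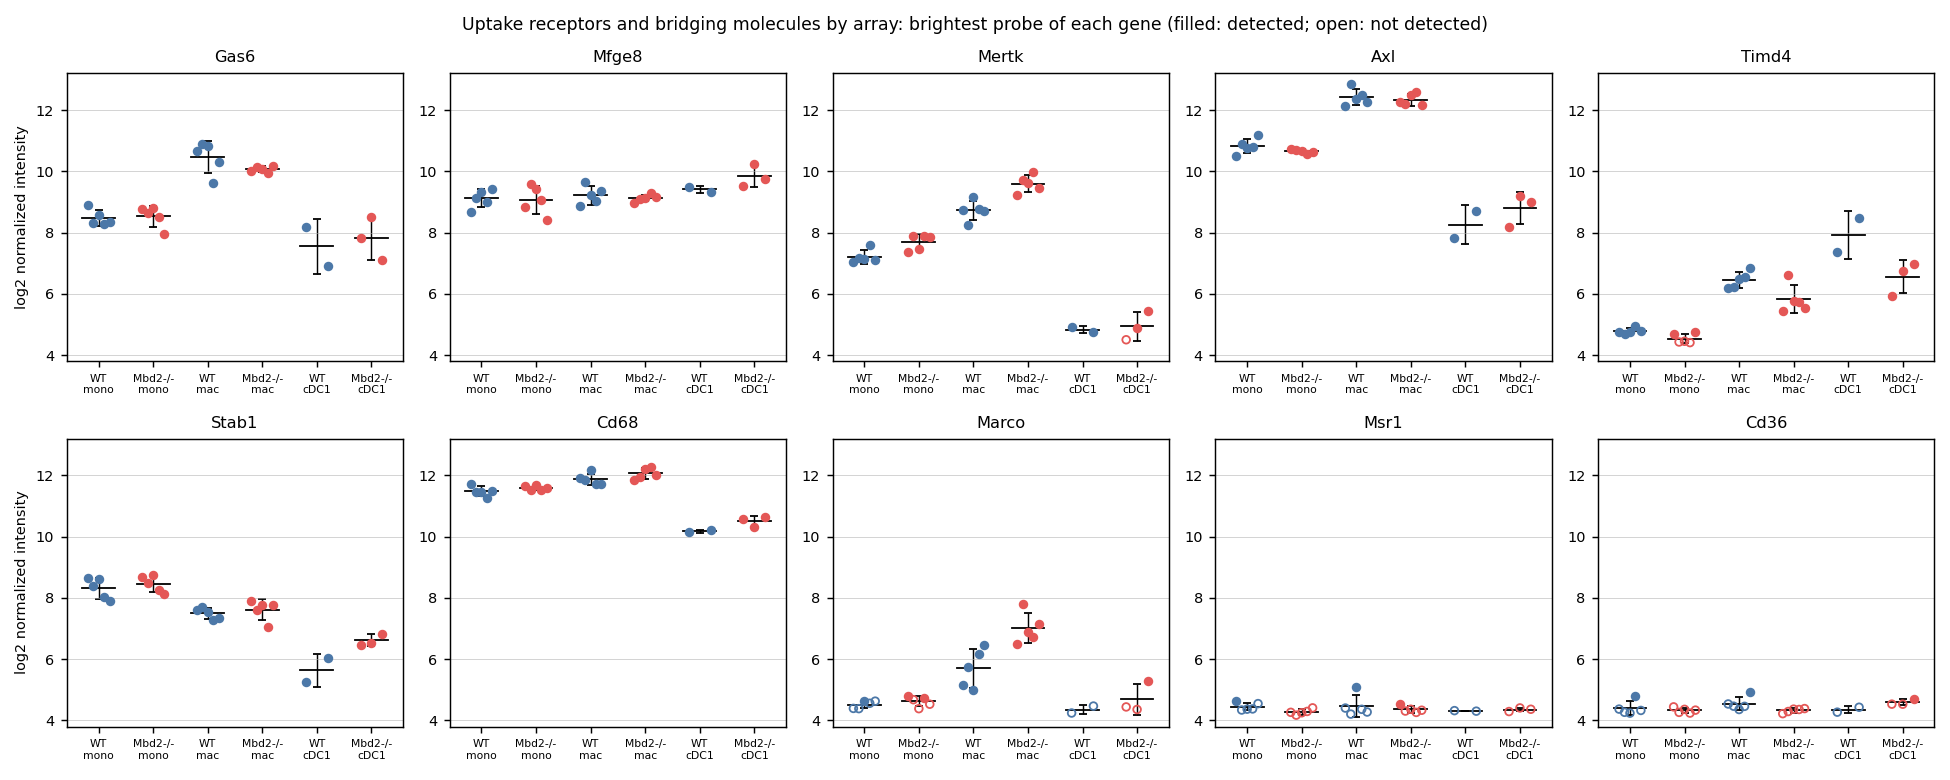
Log2 normalized intensity (vertical axis) of the probe with the highest mean of each gene on every colon array, by cell type and genotype (horizontal axis; blue WT, red *Mbd2*-/-), with open circles where the probe was not detected and the mean and SD in black. *Mertk* and *Axl* step up from cDC1s to monocytes to macrophages, *Timd4* is highest in WT cDC1s, and nearly all *Msr1* and *Cd36* circles are open.

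The members divided by cell type. In macrophages vs. monocytes, with the mean taken over both genotypes, *Gas6*, *Mertk*, *Axl*, *Timd4*, *Marco* and *Cd68* were higher and *Stab1*, by its brightest probe, was lower, while *Mfge8* did not pass. Thus 6 of the 8 members tested were higher and 1 was lower, at an adjusted p under 0.05 (limma, Benjamini-Hochberg over all probes tested), where 23.0% of all genes tested were called higher and 17.5% lower. The median log2 difference over these 8 members was 1.56, and over all genes tested 0.02. In cDC1s vs. macrophages 2 of 8 were higher (26.1% of all genes) and 6 were lower (27.2%), with a median of -2.21. In cDC1s vs. monocytes 2 of 7 were higher (27.4%) and 5 were lower (26.7%), with a median of -1.20. As these are bulk sorts, fewer cells with a transcript and less of it per cell cannot be told apart. The members and these cell types were chosen with earlier results of the data known, so these counts are a description. In the deposited table, taken in runs of 6 columns (the number of arrays on a BeadChip), no run holds both macrophages and monocytes, so position and cell type cannot be told apart for them. WT cDC1s stand in runs with monocytes alone. Of the *Mbd2*-/- cDC1s, arrays 27 and 28 stand in runs with macrophages alone and array 30 with T cells. Within WT, cDC1s vs. monocytes, *Timd4* differed by 3.14 ± 0.29 (SE; adjusted p = 6.2e-09, limma), *Mertk* by -2.38 ± 0.24 (adjusted p = 2.29e-08) and *Axl* by -2.57 ± 0.24 (adjusted p = 7.61e-09). Within *Mbd2*-/-, cDC1s (array 30 included) vs. macrophages, *Timd4* differed by 0.74 ± 0.25 (adjusted p = 0.020), *Mertk* by -4.65 ± 0.21 (adjusted p = 1.88e-14) and *Axl* by -3.53 ± 0.21 (adjusted p = 2.55e-12). Neither fit held the run as a block.

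**Figure D2:**
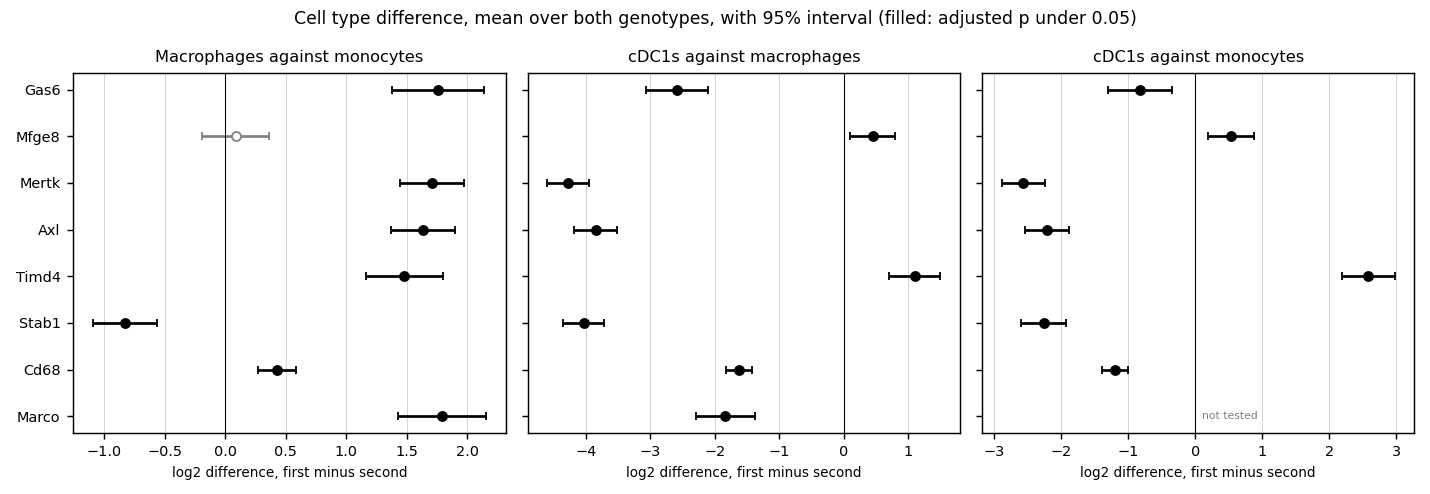
Log2 difference between cell types (horizontal axis), mean over both genotypes with its 95% interval, for the brightest tested probe of each of 8 genes (vertical axis), with filled points where the adjusted p was under 0.05. For *Stab1* that probe was ILMN_2544343 in both comparisons with monocytes and ILMN_2727432 in cDC1s against macrophages, and *Marco* was not tested in cDC1s against monocytes. In cDC1s only *Mfge8* and *Timd4* lie to the right of 0 in the comparisons with macrophages and monocytes.

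Of the bridging molecules, *Gas6* was detected on all 25 colon arrays and was highest in macrophages. The WT macrophage arrays read 10.67, 10.89, 10.83, 9.61 and 10.31 (arrays 11 to 15, log2 intensity) and the *Mbd2*-/- macrophage arrays 10.01, 10.15, 10.06, 9.94 and 10.17 (arrays 16 to 20). Monocyte arrays lay between 7.96 and 8.90 and cDC1 arrays between 6.91 and 8.50, so no macrophage array overlapped them. The difference between macrophages and monocytes was 1.76 ± 0.19 (SE) on the log2 scale, 3.38-fold (adjusted p = 7.06e-08, limma). Between cDC1s and monocytes it was -0.83 ± 0.23 (adjusted p = 0.0039), with arrays that overlapped. Without WT cDC1 array 26, which read 6.91 against 8.19 for the other WT array, that value was -0.51 (adjusted p = 0.096).

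*Mfge8* did not pass between macrophages and monocytes. Its brighter probe (ILMN_3133448) ran from 8.43 to 10.23 over all 25 colon arrays, with group means of 9.11 ± 0.29 (SD, n = 5) in WT monocytes, 9.21 ± 0.30 (n = 5) in WT macrophages and 9.41 ± 0.13 (n = 2) in WT cDC1s. The cDC1s were higher than macrophages by 0.45 ± 0.17 (SE; adjusted p = 0.028) and than monocytes by 0.53 ± 0.17 (adjusted p = 0.0099), in both cases with overlapping arrays. Within WT arrays alone these differences were 0.19 ± 0.25 (adjusted p = 0.58) and 0.29 ± 0.25 (adjusted p = 0.39), and within *Mbd2*-/- arrays 0.71 ± 0.22 (adjusted p = 0.012) and 0.77 ± 0.22 (adjusted p = 0.0059). With its dimmer probe (ILMN_2771034) the differences were 0.18 ± 0.20 (adjusted p = 0.46) and 0.32 ± 0.20 (adjusted p = 0.19). With median scaling they were -0.10 and -0.044 for the brighter probe, beside medians of -0.33 and -0.31 over all genes. Summed epithelial and stromal marker intensities ran from 5717 to 22244 and from 750 to 4052 over the same arrays, and their part in the *Mfge8* level was not tested.

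*Axl* and *Mertk*, receptor kinases of Gas6, had the same order of cell types, and *Tyro3*, the remaining kinase of this family, did not pass the detection filter in any comparison. *Axl* (ILMN_2651715) was highest in macrophages, at 12.42 ± 0.27 (SD, n = 5) in WT and 12.33 ± 0.19 (n = 5) in *Mbd2*-/- macrophages, 10.83 ± 0.24 and 10.66 ± 0.06 (n = 5 each) in monocytes, and 8.25 ± 0.63 (n = 2) and 8.80 ± 0.54 (n = 3) in cDC1s. None of the 3 cell types overlapped with another. The macrophages exceeded monocytes by 1.63 ± 0.13 (SE; 3.11-fold, adjusted p = 5.29e-10) and exceeded cDC1s by 14.4-fold (adjusted p = 1.52e-15, limma). The second *Axl* probe (ILMN_2557510) was detected on 1 of 25 arrays, WT macrophage array 15, and was not tested.

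*Mertk*, which shares the ligand Gas6 with *Axl*, was near background in cDC1s. Its brighter probe (ILMN_2714638) read 4.91 and 4.75 on WT cDC1 arrays 23 and 26, and 4.50, 4.90 and 5.44 on *Mbd2*-/- cDC1 arrays 27, 28 and 30, with array 27 not detected. Monocytes lay between 7.02 and 7.89 and macrophages between 8.24 and 9.98, with no overlap among the 3 cell types. The macrophage level was 3.27-fold that of monocytes (1.71 ± 0.13, adjusted p = 2.21e-10) and 19.3-fold that of cDC1s (adjusted p = 1.94e-16). The dimmer probe (ILMN_2491355) had the same order, with a difference of 1.24 ± 0.16 (adjusted p = 2.07e-06, arrays overlapping) for macrophages vs. monocytes and of -2.51 ± 0.20 (adjusted p = 3.14e-10) for cDC1s vs. macrophages, and was detected on 1 of 5 cDC1 arrays.

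*Timd4*, the phosphatidylserine receptor TIM-4, was highest in cDC1s and lowest in monocytes. WT cDC1 arrays read 7.38 and 8.47 and *Mbd2*-/- cDC1 arrays 5.94, 6.76 and 6.99 (arrays 27, 28 and 30), while macrophages lay between 5.45 and 6.84. Monocytes were lowest at 4.41 to 4.96, and the probe was detected on 5 of 5 WT but 2 of 5 *Mbd2*-/- monocyte arrays. The cDC1s exceeded monocytes by 2.58 ± 0.19 (SE; 5.98-fold, adjusted p = 5.76e-11) with no overlap, and macrophages by 1.10 ± 0.19 (adjusted p = 3.61e-05) with overlap. Macrophages in turn exceeded monocytes by 1.48 ± 0.15 (adjusted p = 5.87e-08) with no overlap. Over the 25 arrays the Pearson r of *Timd4* with *Mertk* was -0.27, and of *Axl* with *Mertk* 0.94, given as descriptions since the arrays share 3 cell types.

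The order of *Stab1* depended on the probe. With ILMN_2544343, WT monocytes read 8.31 ± 0.34 (SD, n = 5) and WT macrophages 7.49 ± 0.18 (n = 5), so that macrophages were lower than monocytes by 0.83 ± 0.13 (SE over both genotypes; adjusted p = 1.82e-05). With ILMN_2727432 the same cells read 6.82 ± 0.25 and 9.00 ± 0.32, and macrophages were 4.88-fold higher (2.29 ± 0.13, adjusted p = 2e-12) with no overlap. The comparison of *Stab1* between monocytes and macrophages has therefore no settled direction here. Both probes were lowest in cDC1s, where macrophages exceeded cDC1s by 2.70-fold with the first probe (adjusted p = 6.71e-08) and 16.4-fold with the second (adjusted p = 5.42e-16), and where monocytes exceeded them by 4.80-fold and 3.36-fold.

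**Figure D3:**
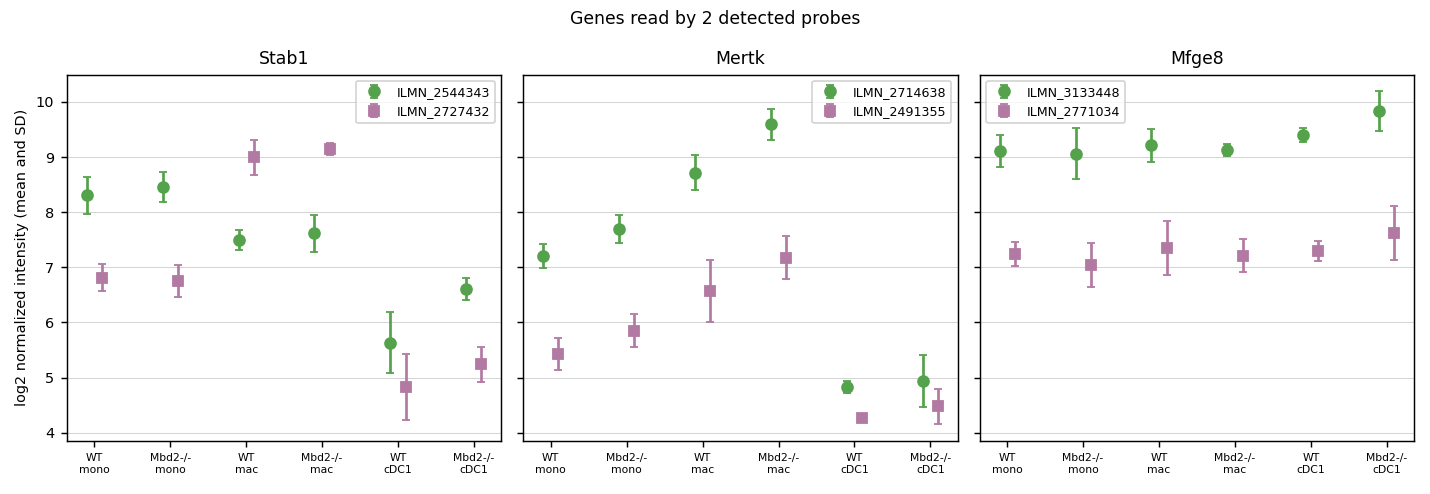
Mean and SD of the log2 normalized intensity (vertical axis) of both detected probes of *Stab1*, *Mertk* and *Mfge8* in the 6 groups of cell type and genotype (horizontal axis). The probes of *Mertk* and of *Mfge8* run side by side at different heights, while those of *Stab1* cross between monocytes and macrophages.

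Among the scavenger receptors, *Marco* was detected mainly in macrophages. It was detected on 10 of 10 macrophage arrays, 3 of 10 monocyte arrays and 1 of 5 cDC1 arrays, where *Mbd2*-/- array 30 read 5.28 and the other 4 lay between 4.24 and 4.47. Macrophages exceeded monocytes by 1.79 ± 0.18 (SE; 3.46-fold, adjusted p = 2.5e-08), a value that rests on a dim side that was mostly at background. *Msr1* and *Cd36* were each detected on 3 of 25 arrays and entered no test. The highest *Msr1* value was 5.08 on WT macrophage array 13, and the highest *Cd36* value 4.94 on WT macrophage array 15. For either gene 1 probe was read, so a transcript that these probes miss was not measured.

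*Cd68* was detected on all 25 arrays. It read 11.48 ± 0.16 (SD, n = 5) in WT monocytes, 11.87 ± 0.19 (n = 5) in WT macrophages and 10.17 ± 0.05 (n = 2) in WT cDC1s. The macrophages exceeded monocytes by 0.43 ± 0.08 (SE; 1.35-fold, adjusted p = 8.44e-05) with overlap, and cDC1s by 3.09-fold (adjusted p = 7.83e-13) without. The difference from monocytes did not pass with median scaling (0.31, adjusted p = 0.13).

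The remaining pathway genes were taken from lists of bridging molecules, other receptors, engulfment machinery and lipid handling, 57 genes in all. In macrophages vs. monocytes 41 were tested, of which 14 were higher and 7 lower, where 23.0% and 17.5% of all genes were. The haptoglobin-hemoglobin receptor *Cd163* (3.21 ± 0.20, SE), the mannose receptor *Mrc1* (2.04 ± 0.14) and the complement opsonin chain *C1qc* (1.72 ± 0.14) rose most, and the phosphatidylserine-binding *Cd300lf* (-1.09 ± 0.21), the HDL receptor *Scarb1* (-0.87 ± 0.22) and *Anxa1* (-0.53 ± 0.12) fell most. In cDC1s vs. macrophages 8 of 44 were higher and 23 lower (26.1% and 27.2% of all genes). Here *Mrc1* (-5.28 ± 0.17), *Cd163* (-4.97 ± 0.24) and *C1qc* (-4.60 ± 0.17) were lowest, while *Calr*, which codes for calreticulin (1.60 ± 0.36), *Anxa1* (1.38 ± 0.15) and *Havcr2*, which codes for the phosphatidylserine receptor TIM-3 (1.19 ± 0.12), were highest. In cDC1s vs. monocytes 7 of 42 were higher (27.4% of all genes), led by *Calr* (1.61 ± 0.36), the kinase *Ptk2* (1.43 ± 0.15) and *Havcr2* (1.00 ± 0.12). The other 25 that passed were lower (26.7% of all genes), led by the lipopolysaccharide co-receptor *Cd14* (-3.47 ± 0.09), the oxysterol sensor *Nr1h3* (-3.46 ± 0.20) and *C1qb* (-3.35 ± 0.13).

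Loss of *Mbd2* was compared within each cell type. In macrophages *Mertk* and *Marco* were higher in *Mbd2*-/-, in cDC1s *Stab1* was higher and *Timd4* lower, and in monocytes no member passed. The macrophage count was 2 of 8 members tested, higher in both, where 2.64% of all genes tested were called higher and 2.92% lower (limma, adjusted p under 0.05).

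**Figure D4:**
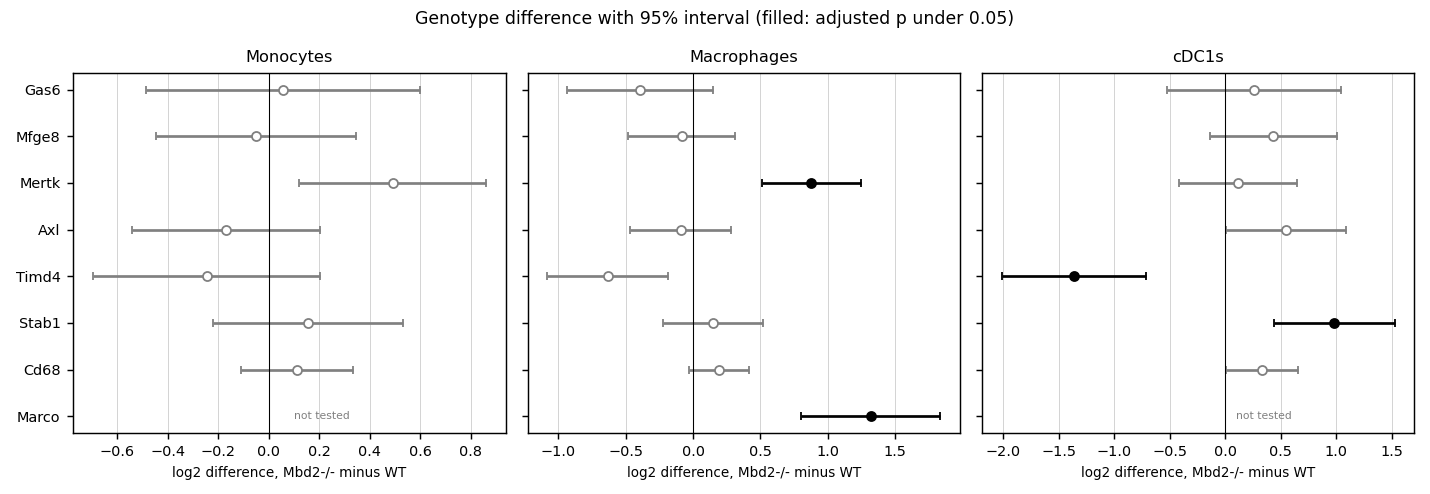
Log2 difference between *Mbd2*-/- and WT (horizontal axis, a separate scale in each panel) with its 95% interval for the brightest tested probe of each gene (vertical axis) in monocytes, macrophages and cDC1s, with filled points where the adjusted p was under 0.05. For *Stab1* the probe was ILMN_2727432 in macrophages and ILMN_2544343 in the others. Filled points are *Mertk* and *Marco* in macrophages and *Timd4* and *Stab1* in cDC1s.

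*Mertk* on the WT macrophage arrays 11 to 15 read 8.72, 8.24, 9.15, 8.76 and 8.72, and on the *Mbd2*-/- macrophage arrays 16 to 20 it read 9.23, 9.72, 9.61, 9.98 and 9.46. All 5 *Mbd2*-/- arrays lay above all 5 WT arrays. The difference was 0.88 ± 0.18 (SE; 1.84-fold, 95% interval 0.51 to 1.25, adjusted p = 0.0081, limma). The dimmer probe gave 0.60 ± 0.23 (adjusted p = 0.11), with arrays that overlapped. The call was lost with median scaling (0.77, adjusted p = 0.11) and with macrophages normalized and fitted alone (0.86, adjusted p = 0.065).

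*Marco* read 5.16, 5.73, 4.98, 6.16 and 6.47 on WT macrophage arrays 11 to 15 and 6.50, 7.81, 6.90, 6.73 and 7.16 on *Mbd2*-/- arrays 16 to 20. The groups did not overlap, although the highest WT array and the lowest *Mbd2*-/- array lay close together. It was 2.50-fold higher in *Mbd2*-/- (1.32 ± 0.25, 95% interval 0.80 to 1.84, adjusted p = 0.0050), with macrophages fitted alone the difference was 1.36 (adjusted p = 0.090), and without background correction it was 0.69 (adjusted p = 0.0033). *Timd4* was lower in *Mbd2*-/- macrophages without passing, at -0.63 ± 0.22 (adjusted p = 0.081), and without *Mbd2*-/- array 17, which read 6.62 against 5.45 to 5.77 for the other 4, it fell by 0.83 (adjusted p = 0.018).

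The other 5 members tested in macrophages had differences between -0.40 (*Gas6*, 95% interval -0.94 to 0.15) and 0.19 (*Cd68*, -0.03 to 0.42). Beside these results, the 6 monocyte markers summed to 6731 to 9216 in *Mbd2*-/- macrophages and 4932 to 7650 in WT macrophages, and *Ly6c1* (0.91 ± 0.27, adjusted p = 0.047) and *Plac8* (0.45 ± 0.13, adjusted p = 0.037) of that list passed. Monocytes themselves had less *Mertk* and less *Marco* than macrophages. The 6 neutrophil markers summed to 1869 to 5825 in *Mbd2*-/- and 1132 to 2354 in WT macrophages. Eosinophil *Prg2* (0.91 ± 0.22, adjusted p = 0.020) rose. The 4 eosinophil markers together overlapped (125 to 195 in *Mbd2*-/-, 109 to 134 in WT), with 1 or 2 detected per array. B cell *Cd79b* (-0.76 ± 0.22, adjusted p = 0.041) and dendritic cell *Zbtb46* (-0.55 ± 0.11, adjusted p = 0.0088) fell. The 8 cDC1 markers together overlapped, at 1767 to 2193 in *Mbd2*-/- and 1609 to 2244 in WT macrophages. The part of these cells in either result was not tested. The 9 macrophage markers overlapped between the genotypes, at 44011 to 50382 and 42683 to 49233.

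In monocytes 0 of 7 members tested passed, where 0.876% of all genes were called higher and 1.07% lower. *Mertk* alone had an unadjusted p under 0.05. The WT monocyte arrays 1 to 5 read 7.02, 7.18, 7.15, 7.58 and 7.10 and the *Mbd2*-/- arrays 6 to 10 read 7.38, 7.89, 7.47, 7.87 and 7.87, a difference of 0.49 ± 0.18 (SE; 95% interval 0.12 to 0.86, adjusted p = 0.18, limma). All but WT array 4 lay below every *Mbd2*-/- array. With array weights the adjusted p was 0.047. For the other 6 the 95% intervals reached from -0.70 (*Timd4*) to 0.60 (*Gas6*), so differences of that size were not excluded.

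In cDC1s 1 of 7 members tested was higher and 1 lower, where 3.71% of all genes were called higher and 3.05% lower. *Timd4* fell in *Mbd2*-/- by 1.36 ± 0.31 (SE, 2 WT and 3 *Mbd2*-/- arrays; 95% interval -2.01 to -0.71, adjusted p = 0.014, limma), and every *Mbd2*-/- array lay below both WT arrays. Without WT array 26, the highest of all, the difference was -0.82 (adjusted p = 0.15). *Stab1* (ILMN_2544343) read 5.24 and 6.02 in WT and 6.46, 6.54 and 6.83 in *Mbd2*-/- cDC1s, a difference of 0.98 ± 0.26 (adjusted p = 0.028) that was 0.59 (adjusted p = 0.37) without WT array 23. This *Stab1* call was lost under 6 of 8 alternatives, down to 0.36 with median scaling (adjusted p = 0.55), and with 3 of 5 arrays left out in turn, the others being *Mbd2*-/- arrays 28 (1.03, adjusted p = 0.051) and 30 (0.88, adjusted p = 0.093). The second *Stab1* probe gave 0.41 ± 0.26 (adjusted p = 0.34), and neither gene passed with cDC1s normalized and fitted alone (adjusted p = 0.35 for both) or with array weights (0.14 for *Timd4* and 0.24 for *Stab1*).

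*Axl* (0.55 ± 0.26, adjusted p = 0.20) and *Cd68* (0.33 ± 0.16, adjusted p = 0.19) had unadjusted p-values under 0.05 in cDC1s, both higher in *Mbd2*-/-. *Cd68*, and *Mfge8* at 0.43 ± 0.28 (adjusted p = 0.36), had arrays that did not overlap. So few arrays often separate where nothing differs, which holds for *Timd4* and *Stab1* in cDC1s as well. The share of all genes whose cDC1 arrays separated was not counted. *Gas6* and *Mertk* had 95% intervals of -0.52 to 1.04 and -0.42 to 0.65. Under median scaling, where the median of all genes moved to -0.36, *Axl*, *Cd68*, *Mfge8*, *Gas6* and *Mertk* were below 0. Markers of other cells also differed between the genotypes in cDC1s. The 9 macrophage markers summed to 1502 and 1580 in WT cDC1s and to 2598, 1777 and 4355 in *Mbd2*-/- cDC1s (arrays 27, 28 and 30), and *C1qb* rose by 0.93 ± 0.22 (adjusted p = 0.015). The 6 monocyte markers (6656 and 6861 in WT, 7761 to 9833 in *Mbd2*-/-) and the 6 neutrophil markers (578 and 646, 1052 to 2573) did not overlap. Neutrophil *Ltf* (1.07 ± 0.30, adjusted p = 0.035) and eosinophil *Prg2* (1.27 ± 0.32, adjusted p = 0.020) rose. Neutrophil *S100a8* (1.35 ± 0.57), *S100a9* (1.44 ± 0.55) and *Csf3r* (0.80 ± 0.26) were higher, without passing. Neutrophil *Camp* (-0.67 ± 0.34) and eosinophil *Ccr3* (-0.15 ± 0.14) were lower, also without passing. *Timd4* was lower, and *Stab1* and *Axl* higher, in monocytes than in cDC1s, and the part of other cells in the cDC1 results was not tested. T cell markers summed to 2783 on WT array 23 and 636 on WT array 26, and to 1160, 2286 and 403 on *Mbd2*-/- arrays 27, 28 and 30. In the deposited table the WT cDC1 columns stand among those of monocytes and the *Mbd2*-/- cDC1 columns among those of macrophages or T cells, so genotype and position in the table cannot be told apart for cDC1s.

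Whether the genotype effect differed between cell types was tested as an interaction, and no member passed in any of the 3 comparisons (limma, adjusted p under 0.05), where 0.0171% of all genes passed for macrophages minus monocytes, 1.04% for cDC1s minus monocytes and 9.50% for cDC1s minus macrophages. At an unadjusted p under 0.05 the counts were 0, 3 and 1 of 7. *Mertk* in macrophages minus monocytes gave 0.39 ± 0.25 (SE; 95% interval -0.13 to 0.91, adjusted p = 0.77) and in cDC1s minus macrophages -0.77 ± 0.31 (adjusted p = 0.11). *Timd4* in cDC1s minus monocytes gave -1.12 ± 0.38 (adjusted p = 0.13), and *Stab1* (ILMN_2544343) 0.83 ± 0.32 (adjusted p = 0.17). The genotype effects on *Mertk* and *Timd4* were thus not shown to be particular to a cell type, and *Marco* could not be tested for it.

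Among the 57 other pathway genes, 2 of 41 tested passed between genotypes in monocytes, 1 of 43 in macrophages and 6 of 41 in cDC1s. *Scarf1*, a scavenger receptor also named SREC-I, rose in *Mbd2*-/- monocytes by 1.27 ± 0.23 (SE; adjusted p = 0.0032) and in macrophages by 0.99 ± 0.23 (adjusted p = 0.015), the only list gene to pass in macrophages, where 2.64% of all genes were called higher and 2.92% lower. In monocytes *Mrc1* fell by 0.74 ± 0.19 (adjusted p = 0.045), beside 0.876% of all genes called higher and 1.07% lower. Markers of other cells also differed there. The 5 endothelial markers summed to 321 to 410 in WT and 418 to 539 in *Mbd2*-/- monocytes, though none that was tested passed. B cell *Cd79b* (-1.07 ± 0.22, adjusted p = 0.0089) and dendritic cell *Zbtb46* (-0.44 ± 0.11, adjusted p = 0.044) fell. The 8 cDC1 markers together overlapped, at 1088 to 1613 in WT and 1293 to 1770 in *Mbd2*-/- monocytes. Of that list *Irf8* (0.35 ± 0.15) and *Batf3* (0.18 ± 0.25) were higher and *Itgae* (-0.45 ± 0.27) lower, without passing. The part of other cells in the monocyte results was not tested. In cDC1s 3 of 41 rose and 3 fell, beside 3.71% and 3.05% of all genes. The endocytic receptor *Lrp1* (0.87 ± 0.24), the mitochondrial carrier *Ucp2* (0.71 ± 0.19) and *C1qb* rose. The Rac activator *Vav3* (-1.05 ± 0.15), *Havcr2* (-0.92 ± 0.17) and the phosphatidylserine-binding *Anxa5* (-0.53 ± 0.13) fell. A second *Ucp2* probe (ILMN_2481182) read 5.60 ± 0.42 (SD) in WT and 5.91 ± 0.15 in *Mbd2*-/- cDC1s. The *Havcr2* value is from ILMN_2721929, which read 11.56 ± 0.18 in WT and 10.64 ± 0.14 in *Mbd2*-/- cDC1s. Its other probe (ILMN_2909597), used for the cell type differences, read 11.25 ± 0.18 and 10.61 ± 0.15. *Havcr2* and *Timd4* both code for phosphatidylserine receptors of the TIM family, of which *Havcr1* did not pass (-0.48 ± 0.21, adjusted p = 0.15). The *Timd4* call has the limits given above, and no alternative was run for *Havcr2*. Over all list genes tested the median differences were 0.04, 0.01 and 0.09 in monocytes, macrophages and cDC1s, beside -0.03, -0.08 and 0.05 over all genes.

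The genes most like each member over the 25 colon arrays, by Pearson r of the brightest probes among 12532 other genes, are given as a description, since all arrays share 3 cell types. For *Mertk* they were *Tceal8* (0.97), *Spic* (0.97), which codes for a transcription factor of macrophages, and *Camk1* (0.97). The closest to *Axl* were *Tgfbr1* (0.98), a TGF-beta receptor chain, *Lpcat2* (0.97) and 6720458D17Rik (0.97). *Gas6* was most like *Fcna* (0.97), a ficolin, *Scamp5* (0.96) and *Gdpd1* (0.96), and *Cd68* was most like *C1qb* (0.97), *Rgl1* (0.97) and *Aoah* (0.97). *Timd4* paired with *Zranb3* (0.93), *Ctla2b* (0.92) and 2900057D21Rik (0.91), and *Marco* with *Ptprm* (0.93), *Hsbp1* (0.92) and *Pla2g2d* (0.92). For *Stab1*, by ILMN_2544343, they were *Sepx1* (0.95), 2010107H07Rik (0.95) and *Aldh3b1* (0.94), and for *Mfge8* *Tpm2* (0.86), *Rasl11b* (0.81) and *Nbl1* (0.80).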

How the data were processed

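Gene expression was measured in cells sorted from the colon on 25 arrays, and on 2 further arrays of splenic CD4 T cells from a T cell transfer model. The authors deposited intensities exported from GenomeStudio, not background-subtracted or normalized, and beside every intensity a detection p-value from the same software, which is not adjusted. Processing tools named in the labels are lumi and limma; the background correction and normalization used by the study were not given in the sources used here. Another 3 array columns that match no sample of the series were not used. Here, background was taken off by normexp, fitted with 936 negative controls, 16 was added as an offset, and values were quantile normalized over the colon arrays and put on the log2 scale, in R 4.3.3 with limma 3.58.1 and data.table (version 1.17.8). Groups were taken from the sample labels.

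One limma model over 6 groups of cell type and genotype was fitted, two-sided, with Benjamini-Hochberg adjustment over all probes tested in a comparison. To be tested, a probe had to be detected (p under 0.05) on a number of arrays no lower than the size of the smaller group, and a gene was read by its brightest tested probe. Named were all 10 members, up to 3 other pathway genes per direction with the largest difference among those that passed, the 3 genes most like each member detected on at least 10 arrays, and markers beside the results they touch. The members and lists were chosen with earlier results of these data known. RefSeq promoters are of build GRCm38.p6. The number of arrays limits the precision, mice may have been pooled, and labels do not say which arrays share one of the study's experiments. The model was tested on simulated data. Alternatives were raw background, 50 as the offset, cyclic loess or median scaling, no detection filter or a stricter (0.01) one, an adjusted p under 0.01, a minimum log2 difference of 1, separate fits, array weights, runs of 6 columns in the deposited order as a block (a BeadChip holds 6 arrays), any probe of a gene, each genotype alone and each array left out.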

Additional observations from a re-analysis of the deposited data

Results flagged for a closer look

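Of 56 sets of 5 arrays (each of 14 probes in monocytes and macrophages of each genotype), 4 held an array whose gap to the nearest other, over the range of the 5, was above the critical value of 0.71, and chance flags about 1 in 20. *Mertk* on WT monocyte array 4 read 7.58 against 7.18 for the next (ratio 0.716). *Timd4* on *Mbd2*-/- macrophage array 17 read 6.62 against 5.77 (ratio 0.726), and without this array the genotype difference passed. For *Msr1*, WT macrophage array 13 read 5.08 against 4.40 (ratio 0.775), the only array of its group on which the probe was detected. For *Cd36*, WT monocyte array 4 read 4.81 against 4.37 (ratio 0.770), likewise the only one detected.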

How the results depend on the processing

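The counts of members that passed between cell types (7, 8 and 7) were within 1.5 times of the reported count under every alternative run, and with each array left out they were 7, 7 to 8 and 6 to 7. Counts between genotypes were less stable. In monocytes the count of 0 became 1 with array weights (*Mertk*), and stayed 0 with each array left out. In macrophages the count of 2 became 1 with median scaling or a minimum log2 difference of 1 (*Marco*) and 0 with macrophages normalized and fitted alone, and was 2 to 3 with each array left out. In cDC1s the count of 2 became 1, *Timd4*, with raw background, 50 as the offset, median scaling, no filter on dim probes or a minimum log2 difference of 1. It became 0 with array weights, a separate fit or an adjusted p under 0.01, and was 1 to 3 with each array left out. For the interactions, the count of 0 in cDC1s minus monocytes and in cDC1s minus macrophages became 1 with no background correction (*Timd4* and *Mertk*), and was 0 to 2 and 0 to 1 with each array left out. The causes were not tested.

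Runs of 6 columns were fitted as a block for genotype in monocytes, in macrophages and for their difference. There the block changed no call except *Timd4* in macrophages (-0.72, adjusted p = 0.032). WT cDC1s share runs with monocytes alone and *Mbd2*-/- cDC1s with macrophages or T cells. Genotype in cDC1s and the comparisons of cell types over both genotypes could therefore not be fitted with it. Within WT, cDC1s vs. monocytes, and within *Mbd2*-/-, cDC1s vs. macrophages, it could be fitted but was not run. No paired analysis was run, because the array numbers, each used once, do not say which sorts came from the same mice. Median scaling moved the median difference of all genes to -0.28 in monocytes, -0.36 in cDC1s, -0.33 in cDC1s vs. macrophages and -0.31 in cDC1s vs. monocytes. With it the sign turned between genotypes for *Gas6* (-0.25), *Stab1* (-0.16) and *Cd68* (-0.15) in monocytes and for *Gas6* (-0.38), *Mfge8* (-0.11), *Mertk* (-0.12), *Axl* (-0.095) and *Cd68* (-0.14) in cDC1s, and for *Mfge8* in cDC1s vs. macrophages (-0.10) and monocytes (-0.044). Cyclic loess turned *Axl* in macrophages (0.020). Leaving out an array turned signs between genotypes within these ranges: *Gas6* (-0.012 to 0.20) and *Mfge8* (-0.18 to 0.11) in monocytes, *Mfge8* (-0.17 to 0.023) and *Axl* (-0.17 to 0.013) in macrophages, and *Gas6* (-0.38 to 0.90) and *Mertk* (-0.13 to 0.34) in cDC1s. The only one of these to pass in the report was *Mfge8* between cell types.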

Other observations

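The 2 splenic CD4 T cell arrays, 1 of each genotype, were taken 6 weeks after T cell transfer, a different colitis model, with no DSS named in their labels, and entered no comparison. *Mfge8* read 478 in WT and 299 in *Mbd2*-/- T cells (raw intensity of the brighter probe) and *Axl* 401 and 320, all detected. *Cd68* read 129 and 183, *Mertk* 107 and 89.6 and *Marco* 109 and 87.2, also detected on both arrays, while *Gas6*, *Msr1* and *Cd36* were detected on neither. With 1 array per genotype no test was possible.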
